A study of Caenorhabditis elegans with 18 samples.

Results

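The transcriptional response of starved first-stage (L1) Caenorhabditis elegans larvae to food was compared between raga-1 mutants and wild-type N2 larvae, and the quantity of interest was the difference between the 2 responses. RNA of whole larvae had been sequenced in 18 libraries, of which 12 enter this comparison, with 3 in each of 4 groups: raga-1(ok386) mutants fed, raga-1(ok386) mutants starved, N2 fed and N2 starved. Per the labels, eggs were isolated with bleach from worms grown at 20 °C, the hatchlings were held for 24 h in M9 buffer, a salt solution with no food, and fed larvae were then given OP50, the standard laboratory strain of Escherichia coli, for 4 h. The other 6 libraries are of rsks-1(ok1255) larvae, starved and fed. They shared in the estimate of the spread, and served to choose genes without using N2 or raga-1. Each mutant is represented by 1 allele, and the labels do not say whether replicates were separate cultures, so p-values may measure technical spread alone.

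RagA, the small GTPase that raga-1 encodes, is a sensor arm of TORC1. With its partner RagC it sits on the lysosome and, when amino acids are plentiful, recruits the kinase complex TORC1 to the place where it is switched on. Active TORC1 promotes the making of proteins and ribosomes and restrains autophagy, in part through the S6 kinase, which rsks-1 encodes. Newly hatched larvae without food stop developing in L1 arrest, and on feeding they resume growth, cell division and the moulting cycle.

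Libraries held 13446155 to 14508882 counts in fed raga-1, 13146918 to 18539402 in starved raga-1, 9929323 to 11246940 in fed N2 and 10261804 to 13012442 in starved N2. No raga-1 library held a count of its mutated gene, whereas fed N2 libraries held 619, 567 and 530 counts and starved N2 libraries 549, 634 and 695. The S6 kinase gene rsks-1 responded to food in raga-1 by a log2 change of -0.10 and in N2 by -0.12, a difference of 0.02 (SE 0.06, adjusted p = 0.805, edgeR quasi-likelihood test with Benjamini-Hochberg adjustment), although under library totals alone the difference was 0.22 (adjusted p = 0.00371). Markers of neurons, body wall muscle, intestine, epidermis, pharynx and germ line were present in all groups, and no marker was at 0 in all 12 libraries. Summed markers of unhatched embryos were 400.4 to 421 CPM (TMM-scaled counts relative to library size) in fed raga-1, 366 to 382 in starved raga-1, 415 to 440.4 in fed N2 and 394 to 406 in starved N2. Most of each sum came from skn-1, which is also in the sensing list below, and nmy-2. In fed raga-1 these had 293, 278 and 289 CPM and 122, 117 and 121 CPM. The sum thus mostly reflects these genes and is a poor measure of unhatched embryos.

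Food changed fewer genes in raga-1 than in N2, and changed them less. Of 14073 genes tested, 8775 (62.4%) changed on feeding in raga-1 and 10399 (73.9%) in N2, where 36.5% were higher and 37.4% lower in fed larvae. The response itself differed for 7110 genes (50.5%). The difference in response is the log2 fed to starved ratio of raga-1 minus that of N2. It was positive for 3063 genes (21.8%) and negative for 4047 (28.8%). This split depends on scaling, with 4512 positive and 2803 negative under library totals alone, which move the median difference of all genes to 0.17 against -0.03 in the main scaling, and 3675 positive and 3371 negative with only the 12 libraries. To size the response without choosing genes on N2 or raga-1, genes at least 2-fold changed by food in rsks-1 mutants were used, in which 9968 genes (70.8%) changed. Over the 1823 of them that rose there, the median ratio of the raga-1 to the N2 log2 change was 0.485 (quartiles 0.287 and 0.615), with a median log2 change of 0.76 in raga-1 and 1.63 in N2. Over the 2224 that fell there, the median ratio was 0.457 (quartiles 0.298 and 0.702), with medians of -0.92 and -1.87. In these sets 209 and 140 genes had log2 changes of opposite sign in raga-1 and N2.

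The genes that food changed at least 2-fold in N2, 2294 higher and 2656 lower, were then separated by what became of their response in raga-1. It was reversed in 140 of 4950 genes (2.83%), meaning that both responses passed the test with opposite signs. It was lost in 807 (16.3%), where the raga-1 log2 change was under 0.25 of the N2 change in size, and reduced but not lost in 2735 (55.3%). A response was called kept in 406 genes (8.2%), where the difference was not called and the ratio lay between 0.75 and 1.33, and enlarged in 58 (1.17%). The other 804 met none of these rules, and 42 of them had a called difference. The limit at 0.25 parts a continuum, with tre-3 and trap-4 (ratio 0.23 each) just inside the lost class and spp-4 and clec-210 (0.27 each) just outside it. Reversal was mostly of genes that rose in N2, with 111 of 2294 higher genes (4.84%) and 29 of 2656 lower genes (1.09%). Outside the 2-fold set, 223 of 9123 genes (2.44%) gained a response of at least 2-fold in raga-1, of which 194 fell and 29 rose. A gained gene may also have changed in N2, by less than 2-fold and in either direction. By sign alone, 98 of the 223 were higher and 125 lower on feeding in N2. Some gained genes thus changed direction without entering the reversed class, which holds only 2-fold responders of N2.

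**Figure D1:**
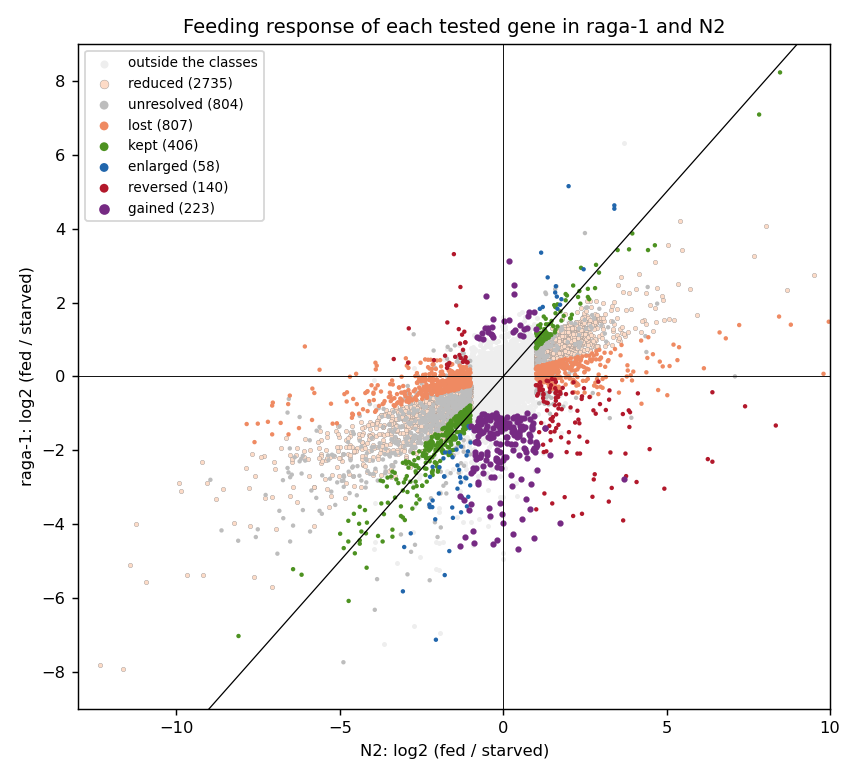
Each point is 1 of 14073 genes, with the log2 fed to starved ratio of N2 on the x axis and that of raga-1 on the y axis, coloured by class with the number of genes. The diagonal marks equal responses, and most genes lie between it and the horizontal line at 0, the 140 reversed genes lying across that line.

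A difference between responses can lie in the starved larvae, in the fed larvae or in both, since it equals the log2 raga-1 to N2 ratio in fed larvae minus that in starved larvae. The ratio itself was called for 8911 genes (63.3%) in fed larvae and 7417 (52.7%) in starved larvae. A difference was placed at the fed level when the starved ratio made up at most 0.25 of it, and at the starved level when it made up at least 0.75, the ratio concerned being called in each case. Either placement can hold genes whose starved and fed ratios have the same sign. A fed placement therefore does not mean that starved levels were alike. Of the 7110 genes, 3679 (51.7%) were placed at the fed level, 1556 (21.9%) at the starved level and 1217 (17.1%) at both, with 658 (9.25%) unresolved. The placement differed by class. Of the 1548 genes that rose in N2 and were reduced in raga-1, 1088 (70.3%) lay at the fed level. Of the 807 lost genes, 328 lay at the fed level, 161 at the starved level and 208 at both. Of the 111 reversed genes that rose in N2, 14 lay at the fed level, 54 at the starved level and 41 at both. Enlarged and gained responses lay mostly at the starved level, with 43 of 58 and 164 of 223 genes.

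**Figure D2:**
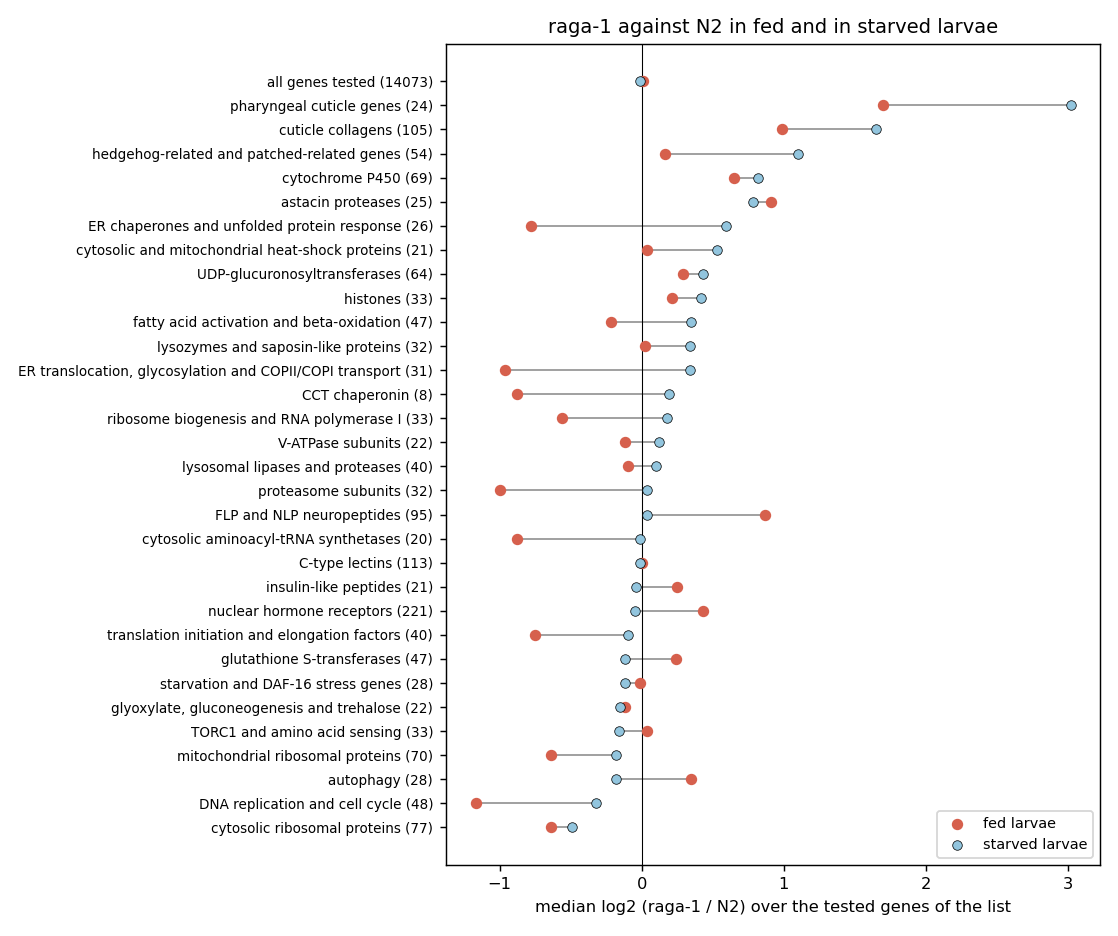
Each row is a gene list with its number of tested genes, and points give the median log2 raga-1 to N2 ratio in fed larvae and in starved larvae. Proteasome subunits had medians of -1.0 fed and 0.04 starved, neuropeptides 0.87 fed and 0.04 starved, and cuticle collagens 0.99 fed and 1.65 starved. Under library totals alone the medians of all genes are 0.33 fed and 0.11 starved.

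Genes that charge tRNAs and run translation rose less in raga-1, mostly with a lower fed level than in N2. All 20 cytosolic aminoacyl-tRNA synthetase genes, whose enzymes charge tRNAs with amino acids, rose on feeding in both genotypes, with a median log2 change of 0.78 in raga-1 and 1.58 in N2. The difference was negative for 19 of 20, against 28.8% of all genes, and positive for lars-1 (0.11, adjusted p = 0.0381, edgeR, a gene named after its value was seen, whose call was lost without any 1 of 8 libraries, with adjusted p up to 0.157). It was placed at the fed level for 18, although under library totals alone for 10, with 8 at both. The lysyl-tRNA synthetase kars-1 had 379, 371 and 372 CPM in fed raga-1, 128, 132 and 125 in starved raga-1, 710.0, 718 and 744 in fed N2, and 88.2, 92 and 90.8 in starved N2. Fed raga-1 larvae thus lay below fed N2 larvae and starved raga-1 larvae above starved N2 larvae, with no overlap, and the difference in response was -1.46 (SE 0.05, adjusted p = 2.42e-56, edgeR). With such a starved gap kars-1 was placed at both levels, unlike the 18 genes at the fed level. Among 40 translation factor genes the difference was negative for 33 and positive for none (median -0.64), against 28.8% and 21.8% of all genes. Of the 33, 25 lay at the fed level, but under library totals alone 29 were negative and 4 positive, with 14 at the fed level and 14 at both. The elongation factor eef-1A.2 had 3194, 2995 and 3162 CPM in fed raga-1, 1224, 1262 and 1226 in starved raga-1, 6883, 7172 and 6859 in fed N2, and 1100.3, 1109.5 and 1095 in starved N2. It rose in both genotypes, by a log2 change of 1.33 in raga-1 and 2.66 in N2.

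Ribosome production was divided. Among 33 nucleolar and RNA polymerase I genes the difference was negative for 25 and positive for 6 (median -0.65), against 28.8% and 21.8% of all genes. Of the called ones 16 were placed at both levels and 9 at the fed level, or 21 and 4 under library totals alone. The box C/D snoRNP protein gene fib-1, fibrillarin, had 1236, 1279 and 1223 CPM in fed raga-1, 418, 408 and 422 in starved raga-1, 2344, 2362 and 2345 in fed N2, and 204, 210.0 and 219 in starved N2. Starved raga-1 larvae had about 2-fold the starved N2 level (log2 ratio 0.98) and fed raga-1 larvae were lower than fed N2 (-0.92), so that the response differed by -1.89 (SE 0.04). Its partners nol-56 and nol-58 had the same arrangement, with starved ratios of 0.73 and 0.60 and fed ratios of -0.86 and -0.72. Cytosolic ribosomal protein genes were lower in raga-1 in both states, in 76 of 77 cases when starved (median -0.49) and 74 of 77 when fed (median -0.64), against 25.7% and 34.4% of all genes. Their responses differed little, with medians of 0.43 in raga-1 and 0.60 in N2. The median difference of -0.15 (52 lower, 1 higher) becomes 0.05 (8 lower, 14 higher) under library totals alone. The higher one was rpl-24.2, whose yeast relative acts in ribosome assembly. It had 239, 242 and 237 CPM in fed raga-1, 285, 274 and 263 in starved raga-1, 209.5, 195 and 203 in fed N2, and 411, 399 and 414 in starved N2. Its fall on feeding was lost (log2 change -0.20 in raga-1 and -1.01 in N2). For 70 mitochondrial ribosomal protein genes the difference was negative in 54 and positive in 4 (median -0.47), against 28.8% and 21.8% of all genes. Of the called ones 51 lay at the fed level, but 16 under library totals alone. In starved larvae 35 of the 70 were also lower in raga-1 and 5 higher. Their largest difference was that of mrps-11 (1.11, SE 0.07), which fell on feeding in both genotypes and whose starved level was lower in raga-1.

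Genes of DNA replication and the cell cycle also differed mostly in the fed larvae. None of 48 had a positive difference and 40 had a negative one (median -0.83), where 21.8% and 28.8% of all genes had. Of the 40, 39 lay at the fed level, and 31 of 34 did under library totals alone. Many were also lower in starved raga-1, 29 of 48 with 2 higher (median -0.32), against 25.7% and 27% of all genes. In fed larvae 46 of 48 were lower in raga-1 (median -1.17), against 34.4% of all genes. The gene mcm-7, a subunit of the replicative helicase, had 23.6, 26.5 and 30.3 CPM in fed raga-1, 11.6, 15.6 and 13 in starved raga-1, 99.9, 96.5 and 104.1 in fed N2, and 15.8, 13.1 and 14.5 in starved N2. The starved groups overlapped and the fed groups did not, and the difference in response was -1.79 (SE 0.12, adjusted p = 3.98e-28, edgeR). The response of the B-type cyclin gene cyb-3 was lost, with 13, 13.8 and 13.5 CPM in fed raga-1, 11.2, 11.2 and 11.8 in starved raga-1, 51.5, 52.5 and 55.5 in fed N2, and 13.3, 12.2 and 14.2 in starved N2. The DNA primase genes pri-1 and pri-2 were reduced, with fed raga-1 to N2 log2 ratios of -1.78 and -1.5 and starved ratios of -0.27 and -0.04. Linker histone genes stood apart. The H1 genes his-24 and hil-2 rose on feeding in N2 (log2 changes 0.54 and 0.64) and fell in raga-1 (-1.39 and -1.12), while hil-1 and hil-7 fell in both, by less in raga-1 (a difference of 3.17 for hil-1). Histone genes in the list include near-identical copies, among which RSEM divides shared reads.

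Protein folding genes of the endoplasmic reticulum (ER) lost their response rather than having it reduced. Of 26 genes for ER chaperones and the unfolded protein response, 23 had a negative difference and 2 a positive one (median -1.27), against 28.8% and 21.8% of all genes. Of the 14 that food changed at least 2-fold in N2, 11 were lost, 2 reversed and 1 reduced, where 16.3%, 2.83% and 55.3% of all such genes were. The median log2 change of the list was -0.04 in raga-1 and 1.04 in N2. Both ends contributed, since starved raga-1 larvae were above starved N2 (median 0.59, 20 of 26 higher) and fed raga-1 larvae below fed N2 (median -0.78, 20 of 26 lower), and 13 of the differences were placed at both levels. The protein disulfide isomerase gene pdi-2 had 754, 708 and 731 CPM in fed raga-1, 689, 726 and 701 in starved raga-1, 1648, 1676 and 1618 in fed N2, and 217, 216 and 221 in starved N2. Fed and starved raga-1 libraries overlapped at a level between the 2 levels of N2. Its log2 change was 0.05 in raga-1 (adjusted p = 0.12) and 2.92 in N2, a difference of -2.87 (SE 0.04, adjusted p = 1.2e-95, edgeR). The BiP gene hsp-3, the most general ER chaperone, had 928, 920.0 and 943 CPM in fed raga-1, 809.5, 829 and 802 in starved raga-1, 2034, 2066 and 2089.6 in fed N2, and 339, 332 and 344 in starved N2. The other BiP gene, hsp-4, whose transcript rises in the unfolded protein response, behaved differently. It had 55.0, 49.7 and 52.4 CPM in fed raga-1, 178, 174 and 168 in starved raga-1, 59.1, 54.7 and 53.1 in fed N2, and 21.3, 19.7 and 20.5 in starved N2. Fed groups overlapped, whereas starved raga-1 libraries were all above every other library, so that food lowered hsp-4 in raga-1 (log2 change -1.73) and raised it in N2 (1.45).

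Genes for moving proteins into and out of the ER also differed from N2, but unlike the folding genes most of them still rose. All 31 had a negative difference (median -1.29), against 28.8% of all genes. Food raised 28 of the 31 in raga-1, with a median log2 change of 0.43 in raga-1 and 1.85 in N2. Of the 27 at least 2-fold responders in N2, 14 were lost and 13 reduced, where 16.3% and 55.3% of all responders were. The 4 subunits of the translocon-associated protein complex, trap-1, trap-2, trap-3 and trap-4, had fed raga-1 to N2 log2 ratios of -1.02, -1.14, -1.17 and -0.90 and starved ratios of 1.11, 1.07, 1.13 and 0.85. The ER thioredoxin-like gene txdc-12.1 had 20.1, 18.2 and 21 CPM in fed raga-1, 19, 19.4 and 19.6 in starved raga-1, 108, 109 and 111 in fed N2, and 8.06, 7.5 and 6.53 in starved N2. Its raga-1 libraries overlapped between fed and starved, and its N2 libraries did not.

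The CCT chaperonin and some heat-shock genes outside the ER kept part of their response. All 8 subunits of the CCT chaperonin, which folds actin and tubulin, rose in both genotypes and were reduced in raga-1 (median difference -1.04). The Hsc70 gene hsp-1 had 1915, 1843 and 1887 CPM in fed raga-1, 888, 929 and 884 in starved raga-1, 3949, 4084 and 3996 in fed N2, and 385, 387 and 390.4 in starved N2. It rose by a log2 change of 1.06 in raga-1 and 3.37 in N2. Among 21 cytosolic and mitochondrial heat-shock genes the difference was negative for 14 and positive for 3, against 28.8% and 21.8% of all genes. The median log2 change of this list was -0.06 in raga-1 and 0.53 in N2, with 9 genes higher and 9 lower on feeding in raga-1. Of 12 responders 9 were reduced and 2 lost, where 55.3% and 16.3% of all responders were. Another 4 genes were gained, against 2.44% of all genes outside the N2 2-fold set. Among the lost was the J-domain gene dnj-13 (log2 change 0.60 in raga-1 and 2.86 in N2).

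**Figure D3:**
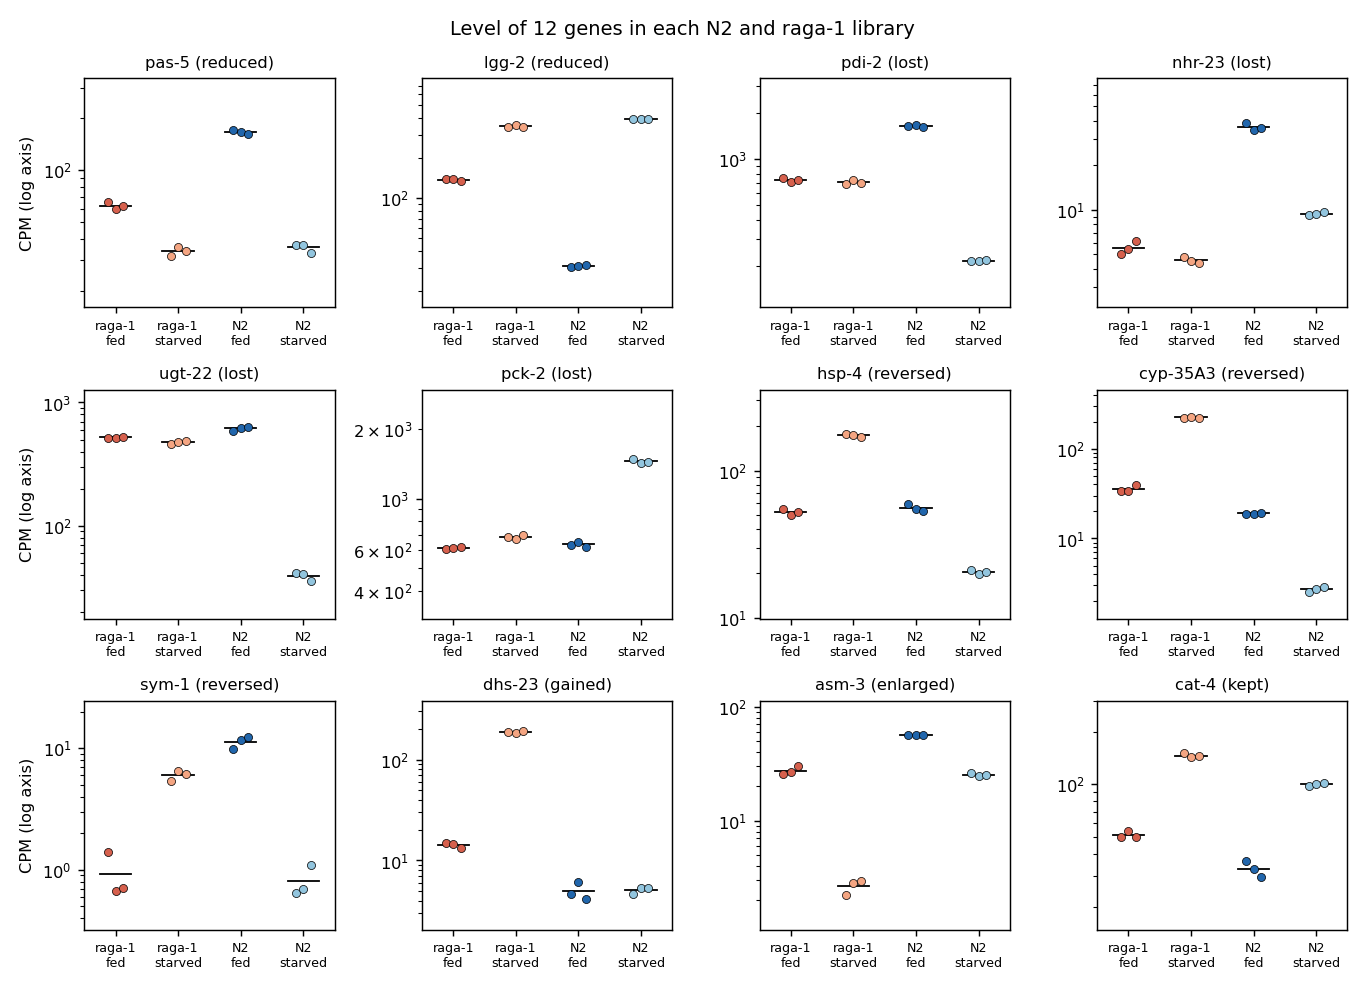
CPM on log axes for 12 genes in each of the 12 libraries, with raga-1 left of N2, fed left of starved and a line at each group mean. The wider gap between raga-1 and N2 is in the fed larvae for pas-5, lgg-2 and nhr-23 and in the starved larvae for ugt-22, pck-2, hsp-4, cyp-35A3, dhs-23 and asm-3. Wide gaps of opposite direction stand at both for pdi-2 and sym-1, and gaps of the same direction for cat-4.

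The degradation machinery divided into genes that rise and genes that fall with food. All 32 proteasome subunit genes rose in both genotypes, with a median log2 change of 0.52 in raga-1 and 1.57 in N2. All 32 had a negative difference (median -1.09), against 28.8% of all genes. Of these, 31 were placed at the fed level, or 18 with 13 at both under library totals alone. The core particle subunit gene pas-5 had 65.8, 59.4 and 61.7 CPM in fed raga-1, 32, 35.7 and 34.2 in starved raga-1, 170.5, 167 and 162 in fed N2, and 36.8, 37.0 and 33.3 in starved N2. Starved groups overlapped and fed raga-1 lay below fed N2 in all libraries (difference in response -1.35, SE 0.08). Autophagy genes fell with food, with a median log2 change of -0.43 in raga-1 and -0.98 in N2. The difference was positive for 19 of 28 and negative for 2, where 21.8% and 28.8% of all genes were, and all 14 of the 2-fold responders were reduced. The Atg8 homologue lgg-2, a protein of the autophagosome membrane, had 138, 139 and 136 CPM in fed raga-1, 342, 354 and 344 in starved raga-1, 30.4, 31.2 and 31.4 in fed N2, and 392, 395 and 392 in starved N2. The fed raga-1 level was over 4-fold that of fed N2 (log2 ratio 2.15) and the starved level slightly lower (-0.18). The other Atg8 homologue lgg-1, the cargo receptor sqst-1 and epg-9 had the same placement, with fed ratios of 1.34, 1.24 and 1.62. V-ATPase subunits, which acidify the lysosome, had small negative differences in 16 of 22 cases (median -0.26), against 28.8% of all genes. Under library totals alone, however, 9 were negative and 5 positive. Lysosomal lipases and proteases had 14 positive and 18 negative differences of 40, against 21.8% and 28.8% of all genes (median -0.09, turning to 0.11 under library totals alone). Among them the lipase lipl-2 lost its fall and the aspartic protease asp-12 was reversed, both at the starved level (starved log2 ratios -2.16 and 3.48).

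Several genes of fuel use differed in the starved larvae. The acyl-CoA synthetase acs-2, which activates fatty acids for mitochondrial oxidation, had 1.19, 0.875 and 1.03 CPM in fed raga-1, 251, 256 and 250.1 in starved raga-1, 0.735, 0.457 and 0.589 in fed N2, and 1941, 1883 and 1897 in starved N2. Both genotypes lowered it to about 1 CPM on feeding. Its starved level was lower in raga-1 than in N2 (log2 ratio -2.92), and the low fed counts make the size of its difference (3.69) imprecise. The flavin-containing monooxygenase fmo-2 (43 ± 2.38 CPM in starved raga-1 and 878 ± 7.89 in starved N2, SD, n = 3) and the glyoxylate enzyme icl-1 (1218 ± 19.4 CPM in starved raga-1 and 4322 ± 41.6 in starved N2) were placed likewise. Over the list of fatty acid activation and beta-oxidation, 31 of 47 genes had a negative difference and 7 a positive one (median -0.75), against 28.8% and 21.8% of all genes. Of the called differences 18 were placed at the starved level, where 21.9% of all called differences were. In addition, 8 genes of the list were gained, against 2.44% of all genes outside the N2 2-fold set. Unlike acs-2, most genes of the list were higher in starved raga-1 (28 of 47, with 12 lower), where 27% and 25.7% of all genes were. Of genes named after their values were seen, the peroxisomal acyl-CoA oxidase acox-1.1 had 77.2 ± 4.32 CPM in fed raga-1, 222 ± 1.52 in starved raga-1, 89.8 ± 2.95 in fed N2 and 120.2 ± 5.30 in starved N2 (SD, n = 3). The peroxisomal enzymes dhs-28 and daf-22 act with acox-1.1 to shorten the side chains of ascaroside pheromones. Both also fell by more in raga-1 (log2 changes -1.42 and -1.34) than in N2 (-0.75 and -0.50). The gene maoc-1 of the same list, also named after its value was seen, did not. It fell by -1.67 in raga-1 and -1.56 in N2, a difference of -0.11 that was not called (adjusted p = 0.23, edgeR). Its starved raga-1 to N2 log2 ratio was 0.02.

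Among glyoxylate, gluconeogenesis and trehalose genes, 9 of 22 differences were positive and 5 negative, where 21.8% and 28.8% of all genes were. Under library totals alone 14 were positive and 0 negative. The phosphoenolpyruvate carboxykinase gene pck-2, of gluconeogenesis, had 608, 613 and 617 CPM in fed raga-1, 680.1, 672 and 700.1 in starved raga-1, 631, 652 and 621 in fed N2, and 1474, 1428 and 1442 in starved N2. Starved raga-1 larvae already had a level close to that of fed larvae, and its fall was lost (log2 change -0.16 in raga-1 and -1.19 in N2). The trehalase gene tre-3 was also lost and the trehalose synthase gene tps-1 reduced, with starved raga-1 to N2 log2 ratios of -1.03 and -0.70. Starvation and DAF-16 stress genes had 13 positive and 6 negative differences of 28, against 21.8% and 28.8% of all genes. Under library totals alone these counts were 17 and 3. The alcohol dehydrogenase adh-1 had 37.9, 37.6 and 38.6 CPM in fed raga-1, 1569.9, 1626 and 1602 in starved raga-1, 9.66, 11.3 and 8.83 in fed N2, and 8056, 8315 and 8288 in starved N2. It was lower than in N2 when starved and higher when fed, as was the noncoding RNA tts-1 (starved log2 ratio -1.69, fed 3.01), so that both ends contributed.

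In the list of TORC1 and amino acid sensing, the differences for the kinase complex itself were small and depended on scaling. The difference in response was 0.01 for let-363 (the TOR kinase, SE 0.06), -0.03 for daf-15 (Raptor, SE 0.06) and 0.21 for mlst-8 (SE 0.14), and it was 0.08 for the activating GTPase gene rheb-1 (SE 0.12). None was called in the main scaling, but library totals alone, which raise the median difference of all genes to 0.17, gave called differences of 0.21, 0.17, 0.41 and 0.28, and mlst-8 was also called without fed N2 replicate 1 (0.36, adjusted p = 0.0467). The RagC gene ragc-1 rose on feeding by a log2 change of 0.67 in raga-1 and 0.87 in N2. Its difference of -0.21 (SE 0.08, adjusted p = 0.0267, edgeR) was not called with only the 12 libraries (-0.11, adjusted p = 0.289), with DESeq2 (-0.18, adjusted p = 0.0847), under library totals alone (-0.01, adjusted p = 0.968) or without starved N2 replicate 1 (-0.16, adjusted p = 0.108). Of 33 genes, 11 had a positive difference and 5 a negative one, where 21.8% and 28.8% of all genes had. Under library totals alone 23 were positive and 1 negative. Those that differed most were the insulin receptor daf-2, the AMP-activated kinase subunit aakb-1, mxl-2, a partner of the Myc-family factor MML-1, and hlh-30, the TFEB homologue that drives autophagy and lysosome genes. The gene daf-2 had 114, 104.03 and 117 CPM in fed raga-1, 169.6, 172 and 176 in starved raga-1, 66.3, 60.7 and 66.8 in fed N2, and 247, 228 and 228 in starved N2. Each raga-1 level lay inside the N2 range, and its fall was reduced (-0.63 in raga-1 and -1.86 in N2). The gene hlh-30 had 373, 363 and 384 CPM in fed raga-1, 399, 401 and 411 in starved raga-1, 240.4, 243 and 249 in fed N2, and 444, 443 and 463 in starved N2, a difference placed at the fed level. The FOXO gene daf-16 rose slightly in raga-1 (0.15) and fell in N2 (-0.55). Insulin-like peptide genes had 10 positive and 3 negative differences of 21, against 21.8% and 28.8% of all genes. Among the 9 responders 4 were lost, where 16.3% of all responders were. The falls of ins-24 and ins-3 were lost, with log2 changes of -0.001 and 0.22 in raga-1 and -1.55 and -1.21 in N2.

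Neuropeptide genes fell with food in 75 of 95 cases in raga-1 and 85 of 95 in N2, with a median log2 change of -0.33 in raga-1 and -1.08 in N2. Their difference was positive for 74 and negative for 3 (median 0.74), where 21.8% and 28.8% of all genes were. Of the 77, 55 were placed at the fed level. Neuron markers moved the same way. Of 15, 10 had a positive difference and none a negative one (median 0.24), and their summed level was 2912 to 2965 CPM in fed raga-1, 3641 to 3714 in starved raga-1, 2094 to 2129 in fed N2 and 3585 to 3655 in starved N2. The part of neuron markers in the neuropeptide result was not tested, and in whole larvae fewer cells of a type and less RNA per cell cannot be told apart. Among those that differed most, nlp-66 had 12.1, 12.7 and 11.5 CPM in fed raga-1, 21.9, 22.4 and 22.4 in starved raga-1, 2.63, 2.97 and 3.77 in fed N2, and 25.5, 21 and 25.1 in starved N2. Starved groups overlapped and fed raga-1 libraries were all above fed N2 libraries. The antimicrobial peptide gene nlp-33, which the epidermis expresses, went against the list (difference -2.29, SE 0.33) with a starved level far above that of N2 (log2 ratio 3.96). Nuclear hormone receptors had a positive difference in 90 of 221 cases and a negative one in 21 (median 0.36), against 21.8% and 28.8% of all genes. Of 90 responders 43 were reduced, 18 lost, 13 kept and 3 reversed, where 55.3%, 16.3%, 8.2% and 2.83% of all responders were. Examples are nhr-206 and nhr-53, at the fed level (fed log2 ratios 1.96 and 2.10), and nhr-21, at both (0.90 fed and -1.21 starved).

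**Figure D4:**
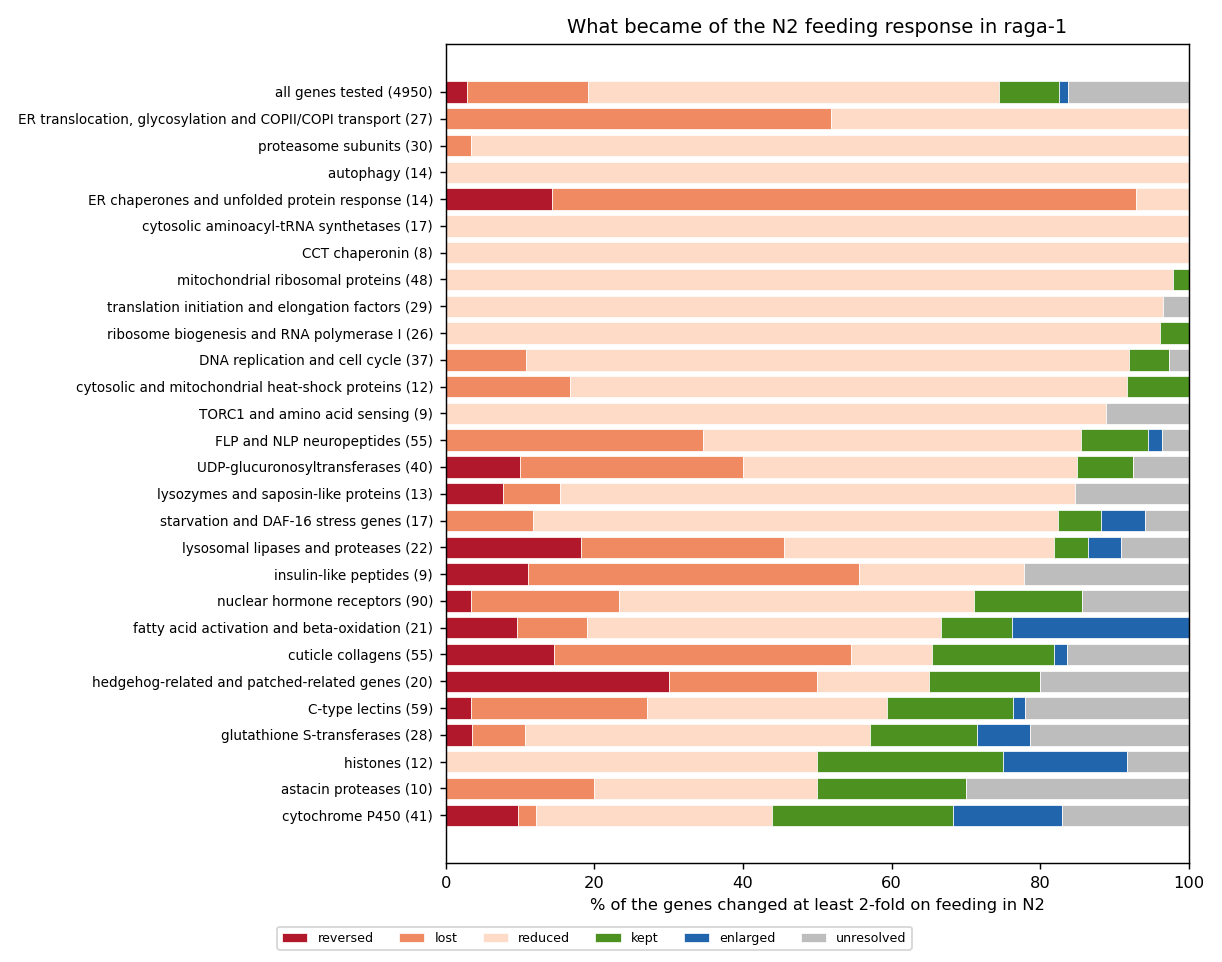
Each bar divides the genes of a list that food changed at least 2-fold in N2 (number in brackets, lists with at least 8) by what became of the response in raga-1, with all genes tested at the top. ER chaperones were mostly lost (11 of 14), proteasome subunits mostly reduced (29 of 30), and cytochrome P450 genes were spread over reversed (4), lost (1), reduced (13), kept (10) and enlarged (6) of 41.

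Many genes of the cuticle and the apical matrix were higher in starved raga-1 than in starved N2. Cuticle collagens were higher in starved raga-1 than in starved N2 in 76 of 105 cases and lower in 4 (median 1.65), where 27% and 25.7% of all genes were. In fed larvae 58 were higher and 14 lower (median 0.99). The difference in response was negative for 43 and positive for 16 (median -0.73), against 28.8% and 21.8% of all genes. Of 55 responders 22 were lost, 9 kept, 8 reversed and 6 reduced, where 16.3%, 8.2%, 2.83% and 55.3% of all responders were. Close copies within this family share reads, which RSEM divides, and 19 of the 105 had 3 or fewer counts in a group. Epidermal markers gave summed levels of 506 to 536 CPM in fed raga-1, 603 to 610.2 in starved raga-1, 596 to 627 in fed N2 and 593 to 601 in starved N2. Of 9 such markers, 5 had a negative difference in response and 1 a positive one (median -0.78), with median raga-1 to N2 log2 ratios of -0.56 fed and -0.05 starved. The markers include collagens of the same list, such as sqt-3, so they are not a separate measure. Their part in the collagen result was not tested. The collagen col-149 had 1.19, 1.21 and 1.16 CPM in fed raga-1, 0.932, 1.51 and 0.712 in starved raga-1, 38.8, 38.9 and 37.2 in fed N2, and 0.55, 0.619 and 0.44 in starved N2. Its rise in N2 was absent from all 3 fed raga-1 libraries (difference -5.92, SE 0.42, adjusted p = 7.05e-26, edgeR), which places it at the fed level. In contrast col-97 and col-14 were high only in starved raga-1, at means of 17.8 ± 2.11 and 25.6 ± 1.74 CPM (SD, n = 3), while the means of the other groups were at most 1.1 CPM. Food lowered both in raga-1 (log2 changes -4.26 and -4.53) and neither change in N2 was called (0.29 and -0.32).

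Among the 10 leading reversed genes, 4 encode matrix or moulting proteins. The leucine-rich repeat matrix protein gene sym-1 had 1.4, 0.673 and 0.708 CPM in fed raga-1, 5.39, 6.50 and 6.12 in starved raga-1, 9.98, 11.7 and 12.4 in fed N2, and 0.641, 0.696 and 1.1 in starved N2. The fibrillin-related gene fbn-1 had 1.54, 1.75 and 1.29 CPM in fed raga-1, 7.25, 4.99 and 6.83 in starved raga-1, 12, 13.4 and 13.4 in fed N2, and 1.1, 1.55 and 1.32 in starved N2. Both were high in starved raga-1 and in fed N2 and low in the other groups. The ACE-like gene acn-1, which is needed for moulting, was high in fed N2 alone, at 1.39 ± 0.408 CPM in fed raga-1, 3.51 ± 1.14 in starved raga-1, 14.4 ± 1.74 in fed N2 and 0.994 ± 0.0926 in starved N2 (SD, n = 3). The cuticlin gene cut-2 was highest in starved raga-1, at 27.4, 30.4 and 28.3 CPM, against a mean of 0.937 ± 0.416 in starved N2 (SD, n = 3). The nuclear receptor nhr-23, which drives the moulting cycle, had 5.05, 5.39 and 6.18 CPM in fed raga-1, 4.79, 4.53 and 4.37 in starved raga-1, 38.7, 34.4 and 35.7 in fed N2, and 9.16, 9.36 and 9.61 in starved N2. It was lower in raga-1 in both states and its rise was lost (log2 change 0.29 in raga-1, adjusted p = 0.0793, and 1.95 in N2). The period homologue lin-42, named after its value was seen, had 1.75 ± 0.114 CPM in fed raga-1, 2.17 ± 0.485 in starved raga-1, 13.5 ± 0.907 in fed N2 and 1.63 ± 0.0731 in starved N2 (SD, n = 3), a rise that was lost as well. Hedgehog-related and patched-related genes, which epidermal cells express, were higher in starved raga-1 in 35 of 54 cases and lower in 5 (median 1.1). Over all genes these shares were 27% and 25.7%. Of their 20 responders 6 were reversed and 4 lost, where 2.83% and 16.3% of all responders were. The gene grd-13 had 96.1, 90.2 and 94.8 CPM in fed raga-1, 123.1, 122 and 119.8 in starved raga-1, 55.4, 56.3 and 54.9 in fed N2, and 4.22, 6.42 and 6.53 in starved N2, and starved N2 alone was low.

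Pharyngeal cuticle genes encode proteins of the lining of the feeding organ. They were higher in starved raga-1 in 17 of 24 cases and lower in 2 (median log2 ratio 3.02), against 27% and 25.7% of all genes. Their median log2 change was -3.95 in raga-1 and -1.17 in N2. Only 8 of the differences were called, 5 negative and 3 positive, where 28.8% and 21.8% of all genes were. Of the 24 genes, 11 had 3 or fewer counts in a group. The gene abu-8 had 1.4, 1.75 and 1.87 CPM in fed raga-1, 44.5, 46.7 and 43.5 in starved raga-1, 0.21, 0.114 and 0.353 in fed N2, and 1.19, 0.464 and 0.587 in starved N2. Starved raga-1 stood above all other libraries. Its difference (-3.09, SE 0.87, adjusted p = 0.00154, edgeR) did not pass without fed N2 replicate 3 (-2.66, adjusted p = 0.0509). Summed pharynx markers were 2645 to 2789.7 CPM in fed raga-1, 3195 to 3391 in starved raga-1, 2052 to 2148 in fed N2 and 3527 to 3625 in starved N2. Of 7 pharynx markers, 5 had a positive difference and none a negative one (median 0.45), and their part in the pharyngeal cuticle result was not tested.

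Detoxification genes supplied some of the largest differences at the starved level. Of 69 cytochrome P450 genes, 40 were higher and 11 lower in starved raga-1 (median 0.82), where 27% and 25.7% of all genes were. The 35 called differences were 16 positive and 19 negative, close to the shares of 21.8% and 28.8% over all genes. Of the 35, 18 lay at the starved level, where 21.9% of all called differences lay. Within the CYP35A group, whose members share sequence and reads, cyp-35A3 had 33.4, 34 and 38.9 CPM in fed raga-1, 220.2, 227 and 221 in starved raga-1, 18.7, 19 and 19.4 in fed N2, and 2.57, 2.71 and 2.86 in starved N2. Food lowered it in raga-1 (log2 change -2.65) and raised it in N2 (2.80), with a starved raga-1 to N2 log2 ratio of 6.35. The gene cyp-35A4 had the same arrangement (-3.72 in raga-1 and 2.41 in N2). For cyp-35A5 the fed libraries were close, at 24.3, 24.4 and 24 CPM in raga-1 and 28.4, 27.2 and 27.7 in N2. The related cyp-35C1 lost its rise at the starved level, and cyp-35D1 kept it, with 34.1, 32 and 33.0 CPM in fed raga-1, 0.133, 0.459 and 0.142 in starved raga-1, 24.5, 27.1 and 28 in fed N2, and 0.183, 0.155 and 0 in starved N2. Its difference of -0.75 has a 95% interval from -2.24 to 0.74, and it was -0.02 without starved raga-1 replicate 2 and -0.14 without starved N2 replicate 3.

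UDP-glucuronosyltransferases, which conjugate lipophilic compounds, had 12 lost and 4 reversed of 40 responders, where 16.3% and 2.83% of all responders were. Their median difference was -0.11, turning to 0.09 under library totals alone. Of 64 differences 17 were positive and 26 negative, against 21.8% and 28.8% of all genes. The gene ugt-22 had 519, 518 and 524 CPM in fed raga-1, 458, 474 and 491 in starved raga-1, 586, 623 and 636 in fed N2, and 41.3, 40.7 and 35.3 in starved N2. Starved N2 alone was low, and the rise was 0.13 in raga-1 and 3.98 in N2 (difference -3.85, SE 0.05, adjusted p = 8.74e-100, edgeR). The gene ugt-41 matched it at the starved level (starved log2 ratio 4.56), whereas ugt-57 failed to rise in fed raga-1, at 3.66 ± 1.31 CPM in fed raga-1, 2.56 ± 0.479 in starved raga-1, 40.5 ± 2.53 in fed N2 and 1.88 ± 0.24 in starved N2 (SD, n = 3). The actin gene act-5, which builds intestinal microvilli, also lost its rise at the starved level, at 1547 ± 32.5 CPM in fed raga-1, 1121 ± 17 in starved raga-1, 2309 ± 24.9 in fed N2 and 322 ± 3.43 in starved N2 (SD, n = 3). Summed intestine markers were 10477 to 10794 CPM in fed raga-1, 9982 to 10274 in starved raga-1, 10825 to 10870.5 in fed N2 and 8449 to 8673 in starved N2. These sums include act-5 itself, and the part of the markers in these results was not tested. The innate defence lists of C-type lectins and of lysozymes and saposin-like proteins were mixed, with 29 positive and 26 negative differences of 113 and 13 and 10 of 32, where 21.8% and 28.8% of all genes were. Under library totals alone these counts were 37 and 20 for the lectins and 16 and 9 for the lysozymes and saposin-like proteins. The infection response gene irg-4 was reduced, with 281, 283 and 279.7 CPM in fed raga-1, 14.6, 18.4 and 17.1 in starved raga-1, 619.7, 618 and 616 in fed N2, and 2.93, 2.01 and 2.20 in starved N2.

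Responses that were gained or enlarged in raga-1 came mostly from starved raga-1 larvae. The short-chain dehydrogenase gene dhs-23 had 14.8, 14.5 and 13.3 CPM in fed raga-1, 189, 183 and 191 in starved raga-1, 4.62, 6.06 and 4.12 in fed N2, and 4.67, 5.34 and 5.28 in starved N2. Fed and starved N2 overlapped, and food lowered the gene in raga-1 by a log2 change of -3.73. The P450 gene cyp-34A9 fell in both genotypes, by more in raga-1, with 22.7, 21.7 and 22.3 CPM in fed raga-1, 256, 262 and 264 in starved raga-1, 9.03, 13 and 11.1 in fed N2, and 32, 31.5 and 32.7 in starved N2. The acid sphingomyelinase gene asm-3 rose by more in raga-1, with 25.5, 26.7 and 30.04 CPM in fed raga-1, 2.20, 2.82 and 2.94 in starved raga-1, 56.4, 56.3 and 56.1 in fed N2, and 26.2, 24.4 and 25 in starved N2. It was lower in raga-1 in both states and its larger log2 change of 3.35, against 1.16 in N2, came from the starved level. Among the 20 genes that lead the reversed and gained classes, nspe-2 and nspe-1 alone rose on feeding in raga-1. The gene nspe-1 had 68.8 ± 12.4 CPM in fed raga-1, 7.91 ± 0.439 in starved raga-1, 15 ± 3.64 in fed N2 and 13.1 ± 1.54 in starved N2 (SD, n = 3). These belong to a family of close copies.

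Responses were kept in 406 genes, of which 175 had levels that differed between the genotypes in the same direction in both fed and starved larvae. A difference that misses the threshold does not show equality, and 92 of the 406 kept genes had a 95% interval of the difference within 1.5-fold, 42 that rose and 50 that fell in N2. Of these, 3 are named here after their values were seen. The gene cat-4, GTP cyclohydrolase, had 50.4, 54.1 and 50.05 CPM in fed raga-1, 150.1, 143 and 145 in starved raga-1, 36.7, 32.8 and 29.7 in fed N2, and 97.6, 100.4 and 102 in starved N2. Its log2 change was -1.5 in raga-1 and -1.59 in N2 (95% interval of the difference -0.07 to 0.25), at levels that were higher in raga-1 in both states. Under library totals alone its difference, 0.29, was called, as was that with only the 12 libraries (0.19, adjusted p = 0.0419). The antimicrobial peptide gene nlp-29 fell alike too (-1.91 and -1.89, interval -0.36 to 0.33), with 23.1, 27.8 and 22.7 CPM in fed raga-1, 95.4, 87.8 and 92.8 in starved raga-1, 5.99, 4.12 and 5.77 in fed N2, and 18.3, 19.7 and 20.9 in starved N2. The cystathionine beta-lyase-like gene cbl-1 rose in both (1.71 and 1.60, interval -0.10 to 0.33), with a called difference of 0.32 under library totals alone. Among the kept genes with the largest N2 changes, zipt-2.3, named as a zinc transporter of the ZIP family, rose by 2.39 in raga-1 and 2.81 in N2, with an interval of -1.07 to 0.22. The cuticle collagen sqt-3 fell by -3.44 and -2.66 with a wide interval (-1.79 to 0.24), with starved levels of 35 ± 1.74 CPM in raga-1 and 2.88 ± 0.38 in N2 (SD, n = 3).

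The loss of response was then set against the rsks-1 mutant by testing the raga-1 response against the rsks-1 response, a comparison that uses no N2 library. It differed for 6199 of 14073 genes (44%), with 2645 positive and 3554 negative. Against N2, the rsks-1 response differed for 3737 genes (26.6%). In the classes set by raga-1 and N2, the rsks-1 response took no part. The 111 genes that rose in N2 and were reversed in raga-1 had a median log2 change of -0.92 in raga-1, 1.54 in rsks-1 and 1.74 in N2. The 343 lost genes that rose in N2 had medians of 0.22 in raga-1, 1.24 in rsks-1 and 1.66 in N2, and the 464 that fell had -0.22, -1.15 and -1.72 in the same order of genotypes. The test called a difference between raga-1 and rsks-1, in the same direction as against N2, for 106 of the 111, 299 of the 343 and 286 of the 464. These counts share the raga-1 libraries with the classes. For autophagy the median log2 change was -0.43 in raga-1, -1.17 in rsks-1 and -0.98 in N2, and 21 of 28 genes differed between the mutants in the positive direction and 1 in the negative. For ER chaperones it was -0.04 in raga-1, 0.37 in rsks-1 and 1.04 in N2. The gene hsp-4 rose on feeding by 0.34 in rsks-1, where it fell by 1.73 on the log2 scale in raga-1. For neuropeptides the median log2 changes were -0.33 in raga-1, -0.48 in rsks-1 and -1.08 in N2.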

How the data were processed

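The authors deposited expected counts per gene, unscaled, for 18 libraries. STAR, RSEM, DESeq2 and a genome called WBcel269 are named by the submitters' processing notes, without versions or roles, so no coordinates are given. RSEM splits reads among close copies. Counts were rounded (0.962% of values were not whole). With filterByExpr (minimum count 10), 14073 of 46904 genes were kept. TMM scaling was followed by the robust quasi-likelihood test of edgeR 4.0.16 in R 4.3.3, fitted to all 18 libraries with 1 mean per group (12 residual degrees of freedom). P-values were adjusted by Benjamini-Hochberg over all genes tested, with a threshold of 0.05. The SE is the log2 change over the square root of F, which may be too small where counts are few. Totals of 9929323 to 18539402 counts per library limit the precision of genes with few counts. Replicates differed by more than counting error, with a mean chi-square per gene of 2.12 to 5.99.

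The genes, lists and class limits were chosen with earlier results of these data known. The text names genes from the 10 largest differences per class (for kept and reduced genes, the largest N2 changes) and the 4 largest per list, at a mean of at least 10 CPM in some group, plus the sensing list and genes marked as named later. On simulated data for the difference in response, 8, 22, 33 and 42 of 50 genes changed 1.25, 1.5, 2 and 4-fold were recovered and 9 unchanged genes were called, of 13914 tested. Alternatives were DESeq2 1.42.0, other scalings, filters, libraries and limits, and a replicate block.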

Additional observations from a re-analysis of the deposited data

Results flagged for a closer look

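The difference between feeding responses passed the test (edgeR quasi-likelihood, adjusted p under 0.05) for 7110 of 14073 genes between raga-1 and N2 and for 6199 between raga-1 and rsks-1. The 10 leading reversed genes drew attention because food moved them one way in raga-1 and the other way in N2, with the difference itself called. Those that fell in raga-1 and rose in N2 had differences of -6.83 for cyp-35A5, -6.46 for sym-1, -6.45 for phat-4, -6.13 for cyp-35A4, -5.92 for cut-2, -5.45 for cyp-35A3, -5.34 for fbn-1, -5.22 for acn-1 and -4.58 for aagr-4. The gene nspe-2 rose in raga-1 and fell in N2 (4.82). Without starved N2 replicate 3 the value for cyp-35A5 was -7.42. In rsks-1 all 9 of those that rose in N2 rose too, with log2 changes from 2.44 for aagr-4 to 6.30 for cyp-35A5, and nspe-2 fell (-0.93). Groups of 3 libraries were not tested for outlying samples.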

How the results depend on the processing

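Of 3857 results for 203 named genes under the alternatives, 3796 kept their side of the threshold, among them 31, for 6 genes, that were called in neither fit and turned in sign. A further 47 no longer passed and 13 newly passed. The gene daf-15 was called with the other sign, at 0.17 under library totals alone against -0.03. Leaving out each of the 12 libraries in turn gave 2889 to 3020 positive and 3849 to 3979 negative differences, 130 to 150 reversed, 797 to 844 lost, 2630 to 2683 reduced, 364 to 437 kept, 48 to 57 enlarged, 885 to 962 unresolved and 198 to 235 gained genes. The levels then held 1443 to 1545 (starved), 3491 to 3590 (fed), 1131 to 1191 (both) and 656 to 706 (unresolved) genes. The response ratios were 0.481 to 0.489 for genes that rose and 0.445 to 0.468 for genes that fell in rsks-1. Class counts depend on the limits. Lost genes numbered 1329 with a limit of 0.33. An N2 change of at least 4-fold leaves a smaller set of responders, so each count falls without showing that its share changed. Then 51 were reversed, 307 lost, 901 reduced, 140 kept, 15 enlarged and 320 unresolved, with reduced again the largest class. With responders chosen in rsks-1, which is another set of genes, 494 were lost and 98 enlarged. Level limits of 2/3 and 1/3 left 383 genes unresolved. Of the 2316 differences of at least 2-fold, 562 lay at the starved level, 904 at the fed level, 607 at both, and 243 were unresolved. Kept genes with an interval within 1.5-fold, an alternative added after seeing the data, numbered 92. DESeq2 called 2872 positive and 3624 negative differences. Library totals raised the positive share of calls to 61.7%, against 43.1%, and fitting only the 12 libraries to 52.2%. Replicate numbers did not pair samples (18 correlations from -0.13 to 0.10), and with a replicate block 3042 positive and 4036 negative differences were called and no named gene changed its call.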
